A study of Mus musculus with 64 samples.

Results

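The comparison concerns epididymal white adipose tissue (eWAT) of wild-type (WT) mice at 2 times of day, ZT 10 and ZT 22, where Zeitgeber time (ZT) counts hours from lights on. Its members are 8 of the 64 RNA libraries of the series, 4 at ZT 10 and 4 at ZT 22, chosen by their labels for depot, genotype and time. Lights went off at ZT 12, so ZT 10 lay 2 h before the dark phase and ZT 22 lay 2 h before the next light phase, 12 h later. All animals were male, 2 to 4 months old, ate chow and lived at room temperature. The WT mice were littermates without Cre from the *Nampt*tm1Jtree line, which carries loxP sites around exon 3 of *Nampt*. The other genotype, FANKO, has the same floxed gene with Adiponectin-Cre, which deletes it in adipocytes. The other 56 libraries came from WT eWAT at ZT 6 and ZT 18, from FANKO eWAT and from brown adipose tissue (BAT) of both genotypes, with 4 per group. Each library was made from bulk tissue, so a change in the share of a cell type and a change in RNA per cell cannot be told apart. The sources used here do not say whether the samples of a group came from separate mice, and p-values measure the spread between these samples.

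The circadian clock of mammalian cells is a feedback loop of transcription. The activators BMAL1 (gene *Arntl*) and CLOCK or NPAS2 bind E-box sequences and switch on the *Per*, *Cry* and *Nr1d* genes. PER and CRY proteins then block the activators, while REV-ERB proteins (*Nr1d1*, *Nr1d2*) repress *Arntl* through elements that ROR proteins activate. In white fat the clock runs alongside a feeding rhythm, because mice eat mostly in the dark, and fat stores lipid after meals and releases fatty acids during fasting.

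Between ZT 10 and ZT 22, 435 of 18393 genes tested differed at an FDR of 0.01 (false discovery rate, by the quasi-likelihood F-test of edgeR on the 16 WT eWAT libraries, with p adjusted over all genes tested by Benjamini and Hochberg). This was 2.37% of the genes tested, and 1313 genes (7.14%) passed an FDR of 0.05. Expression was higher at ZT 22 for 221 genes (1.20%) and higher at ZT 10 for 214 genes (1.16%). Most differences were moderate, with a median log2 fold change of 0.67 among the genes higher at ZT 22 and -0.85 among those higher at ZT 10, against 0.009 over all genes tested. A fold change above 2 was found for 54 genes higher at ZT 22 and 87 higher at ZT 10. At the threshold, *Tsr1* (log2 fold change 0.65) and *Lrrc56* (-0.93) had the largest p among the called genes, 0.000233 each before adjustment. *Castor1* (-1.24) and *Serpinb9* (0.41) lay just outside at 0.000238. The number of calls depended on libraries of the other time points, which share the estimate of spread. Without ZT 18 replicate 4, a library that stood apart from the other ZT 18 libraries in lipid genes, 902 genes were called, and these included all 435. Leaving out 1 of the 8 compared libraries gave between 170 and 533 calls, the lowest without ZT 10 replicate 1 and the highest without ZT 22 replicate 4. Some called genes named in the following paragraphs lost the call without 5 or more of the 8 libraries, left out 1 at a time. Among these were *Hsp90aa1*, *Creld2*, *Pdia6*, *G0s2*, *Cpt1a*, *Naprt*, *Nr1h3*, *Pfkp*, *Bysl*, *Parp9*, *Ifih1*, *Atp6v0a2*, *Bbx* and *Eif4a1*. Such losses were not counted for *Tsr1*, *Lrrc56*, *Ahsa1*, *Chordc1* and *Gm45060*.

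**Figure D1:**
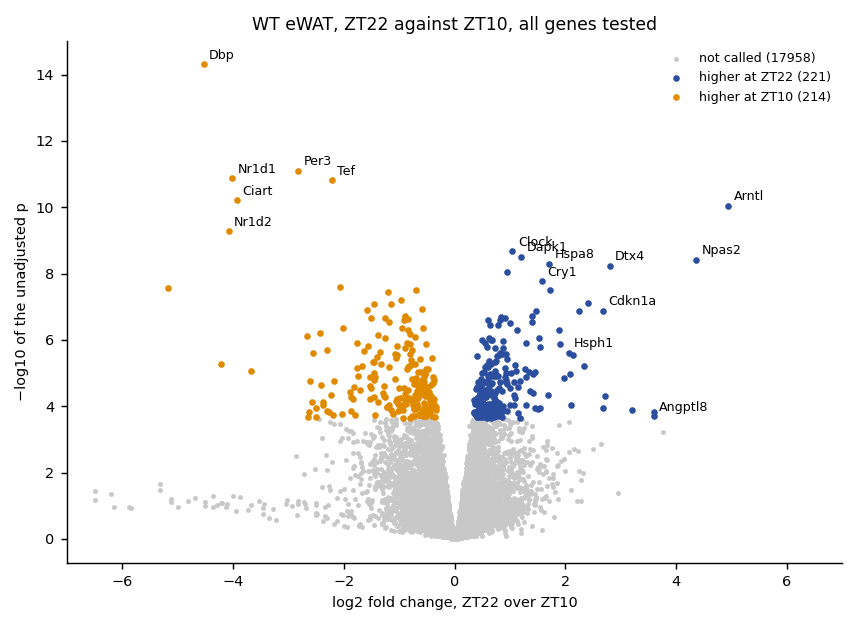
Each point is 1 of the 18393 genes tested in WT eWAT, with the log2 fold change of ZT 22 over ZT 10 on the horizontal axis and −log10 of the unadjusted p on the vertical axis. Blue points are the 221 genes higher at ZT 22, orange points the 214 genes higher at ZT 10, and grey points the genes not called at an FDR of 0.01. The clock genes *Dbp*, *Per3*, *Nr1d1*, *Tef* and *Ciart* lie highest.

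The 8 libraries held between 10595161 and 21370518 counts assigned to genes. The first 2 principal components of the 16 WT eWAT libraries took 19.2% and 15.6% of the variance. ZT 22 replicates 1 to 3 lay between 27.2 and 39.1 on the first component and replicate 4 at 13.4, while the ZT 10 libraries lay between -23.7 and -6.8. Adipocyte markers were abundant in every library, with summed CPM (counts scaled by library size and TMM factor) of 24763 to 26065 at ZT 10 and 23455 to 24557 at ZT 22. Of the 8 adipocyte markers, 0 were called. Markers of skeletal muscle summed to 14.0 to 23.4 CPM at ZT 10 and to 25.7, 25.9, 28.3 and 105 CPM at ZT 22, with the highest value in replicate 4, and 0 of the 4 tested were called. Markers of erythrocytes summed to 142 to 214 CPM at ZT 10 and to 319 to 357 CPM at ZT 22. All 5 tested had a fitted difference above 0, with a median of 0.70, and 0 were called. For each of these 3 sums the groups did not overlap (exact permutation test, two-sided p = 0.0286, the smallest that 4 against 4 can give, and 0.124 after adjustment over 13 measures). Over the 11 marker lists, the brown or beige adipocyte marker *Elovl3* was the 1 called gene, at 0.192 to 0.472 CPM and 1.44 to 3.50 CPM (3.19, SE 0.64, adjusted p = 0.00672). *Elovl3* was not called under limma-voom, with a replicate block or without any 1 of the 8 libraries other than ZT 22 replicate 4. Their part in the differences described here was not tested.

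The clock genes carried the strongest differences of the comparison. *Arntl*, which encodes BMAL1, was at 1.80, 2.53, 1.79 and 1.73 CPM at ZT 10 and at 67.1, 64.5, 62.0 and 50 CPM at ZT 22. The groups lay far apart, and the difference was 30.7-fold (log2 fold change 4.94, SE 0.33, adjusted p = 2.7e-07). *Npas2*, which encodes an alternative partner of BMAL1, was below 0.5 CPM in all ZT 10 libraries, at 0.467, 0.421, 0.472 and 0.320 CPM, and at 9.39, 8.25, 9.13 and 7.97 CPM at ZT 22. This was a 20.5-fold difference (4.36, SE 0.38, adjusted p = 7.1e-06). *Clock* itself was abundant at both times and differed 2.06-fold. Its libraries held 106, 116, 133 and 129 CPM at ZT 10 against 241, 251, 274 and 231 CPM at ZT 22 (1.04, SE 0.09, adjusted p = 4.9e-06). *Rora*, which encodes a nuclear receptor that activates *Arntl*, differed the other way. It was at 149, 142, 139.5 and 148 CPM at ZT 10 and at 85.8, 77.4, 88.6 and 93.8 CPM at ZT 22, so the groups did not overlap (-0.74, SE 0.15, adjusted p = 0.00881). *Rora* lost its call when any 1 of the 8 libraries was left out. Of the 5 tested clock activators, 3 were higher at ZT 22 and 1 was higher at ZT 10. The shares over all genes were 1.20% and 1.16%.

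The repressors were high at ZT 10, with *Cry1* as the exception. Of 14 tested, 5 were higher at ZT 10, 1 was higher at ZT 22 and 8 were not called. The shares over all genes were 1.16% higher at ZT 10 and 1.20% higher at ZT 22. The median log2 fold change of the list was -0.99. *Nr1d1*, which encodes REV-ERBα, was at 79.3, 61.8, 71.5 and 85.3 CPM at ZT 10 and at 4.8, 4.54, 3.04 and 6.22 CPM at ZT 22. It was 16.2-fold higher at ZT 10 (-4.02, SE 0.24, adjusted p = 7.1e-08). *Nr1d2*, which encodes REV-ERBβ, gave nearly the same ratio from higher levels, at 199, 171, 204 and 205 CPM against 9.32, 8.51, 11.7 and 16.9 CPM (-4.08, SE 0.31, adjusted p = 1.4e-06). *Ciart*, whose product represses CLOCK and BMAL1, fell from 14.6, 9.87, 14.9 and 16 CPM to about 1 CPM or less in all 4 ZT 22 libraries (-3.94, SE 0.26, adjusted p = 2.2e-07). The 3 *Period* genes were each lower at ZT 22 in all libraries, by unequal amounts. *Per3* was at 282, 310.2, 277 and 258 CPM at ZT 10 and at 39.5, 34.0, 38.4 and 47.6 CPM at ZT 22 (-2.82, SE 0.16, adjusted p = 7.1e-08). *Per1* was at 65.7 to 85.6 CPM and at 15.5 to 25.8 CPM (-1.83, SE 0.34, adjusted p = 0.00428), and was not called when any 1 library other than ZT 22 replicate 4 was left out. *Per2* was at 89.4, 81.6, 61.8 and 56.8 CPM and at 47.4, 45.7, 22.9 and 20.1 CPM, which did not overlap and did not pass (-1.09, SE 0.32, adjusted p = 0.0505). At the other times *Per2* was at 11.8 to 28.7 CPM (ZT 6) and 44.4 to 93.6 CPM (ZT 18), which did not pass either (1.55, adjusted p = 0.0162).

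*Cry1*, which encodes a late-acting repressor, was at 14.0, 14.3, 14.0 and 11.1 CPM at ZT 10 and at 46.8, 36.2, 45.1 and 30.4 CPM at ZT 22 (1.57, SE 0.15, adjusted p = 2.2e-05). *Cry2*, its paralog, overlapped between the groups at 60.3 to 70.4 CPM and 55 to 82.2 CPM (0.06, SE 0.11, adjusted p = 0.80). *Bhlhe41*, which encodes an E-box-binding repressor, was at 20.7 to 32.9 CPM and at 8.65 to 19.9 CPM and did not pass (-1.12, SE 0.25, adjusted p = 0.0128). Its paralog *Bhlhe40* overlapped widely, at 75.9 to 138 CPM and 29.1 to 116 CPM, with the lowest value in ZT 22 replicate 4.

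The PAR bZIP factors DBP, TEF and HLF bind D-box sequences and relay the clock to output genes, and NFIL3 represses through the same sequences. All 4 genes were called, the 3 activators higher at ZT 10 and *Nfil3* higher at ZT 22. *Dbp* had the smallest p of all genes tested. It was at 97.1, 102, 108 and 106 CPM at ZT 10 and at 3.66, 4.90, 4.01 and 5.23 CPM at ZT 22, a 23.2-fold difference with little spread in either group (-4.53, SE 0.16, adjusted p = 9.1e-11). *Tef* was at 471, 461, 431 and 428 CPM and at 95.3, 101, 91.3 and 97.0 CPM (-2.22, SE 0.13, adjusted p = 7.1e-08). *Hlf* was at 24.9 to 29.6 CPM and at 8.10 to 9.91 CPM (-1.59, SE 0.18, adjusted p = 8.9e-05). *Nfil3* was at 7.94, 6.74, 3.12 and 4.15 CPM and at 26.5, 30.7, 22.2 and 17.8 CPM (2.13, SE 0.30, adjusted p = 0.000604). The reading strand used in counting is not given in the sources used here. *Arntl*, *Rora*, *Nr1d1*, *Dbp* and *Tef* share exonic bases with a gene on the other strand. For *Nr1d1* this partner is *Thra*, which had a log2 fold change of -0.044, and for *Dbp* it is *Sphk2*, at 0.289, so the partners did not follow the difference of either gene.

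**Figure D2:**
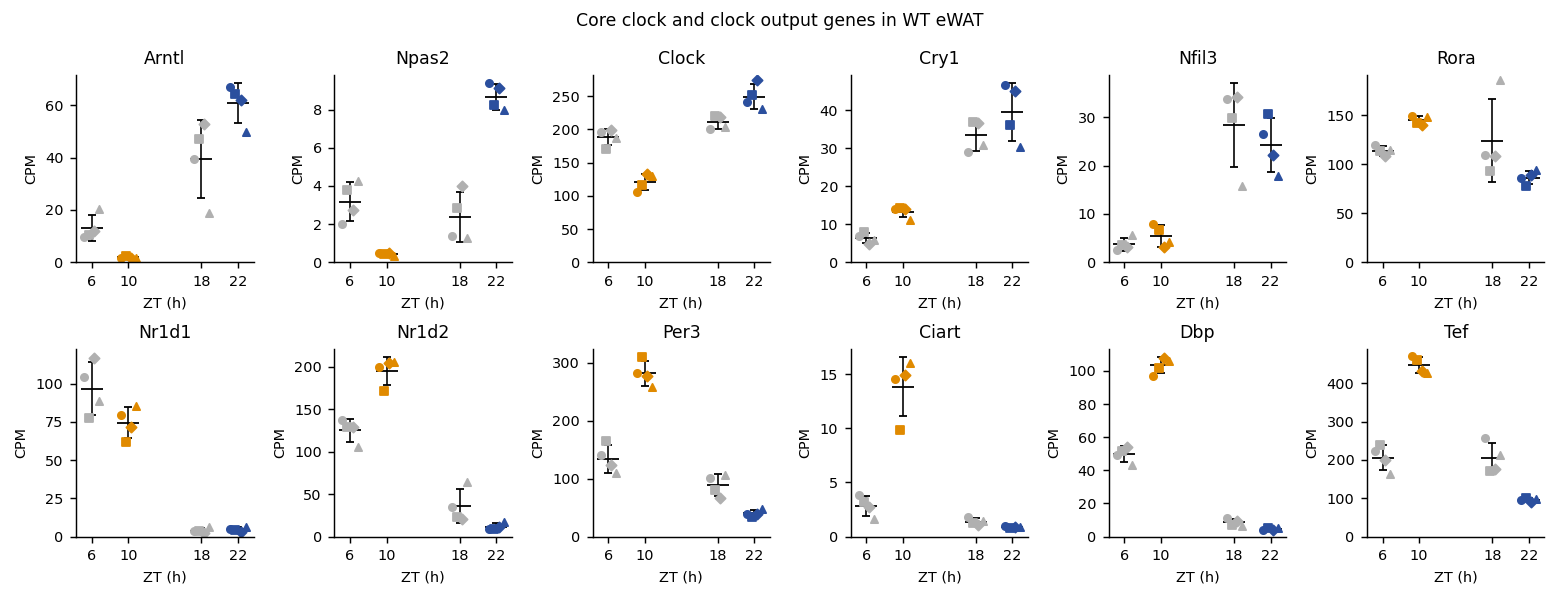
CPM of 12 clock and clock output genes in the 16 WT eWAT libraries, by ZT in hours, with a separate linear axis for each gene. Points are libraries (circle, square, diamond and triangle for replicates 1 to 4, orange at ZT 10, blue at ZT 22, grey at ZT 6 and ZT 18), and bars are the mean and SD of 4. *Arntl*, *Npas2*, *Clock*, *Cry1* and *Nfil3* are high at ZT 22, while *Rora* and the genes of the lower row are high at ZT 10 and low at ZT 22.

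The order of the 4 time points separated genes that shared a direction between ZT 10 and ZT 22. *Nr1d1* was already at 77.3 to 117 CPM at ZT 6 and at 2.33 to 5.99 CPM at ZT 18, so its levels at the remaining pair of times differed as well (ZT 18 minus ZT 6, -4.60, adjusted p = 3.8e-08). *Tef* was at 163 to 239 CPM at ZT 6 and 172 to 256 CPM at ZT 18, between its ZT 10 and ZT 22 levels (-0.02, adjusted p = 0.959). *Cry1* differed more between ZT 6 and ZT 18 (2.37, adjusted p = 6.2e-07) than between ZT 10 and ZT 22 in fitted size. *Npas2* was at 1.29 to 4.02 CPM at ZT 18 and reached 7.97 CPM or more at ZT 22. Over all genes, 193 of the 221 genes higher at ZT 22 had the highest of their 4 means at that time and 27 had it at ZT 18. Of the 214 genes higher at ZT 10, 198 had their highest mean at ZT 10 and 12 at ZT 6. Both sets were chosen by their ZT 10 and ZT 22 levels in these libraries. That choice favours the highest mean at those times, so these counts do not place the peaks. Between ZT 6 and ZT 18, 106 genes (0.576%) were higher at ZT 18 and 36 (0.196%) were higher at ZT 6. Of the genes higher at ZT 22, 30 were also called higher at ZT 18 and 0 at ZT 6, and of those higher at ZT 10, 16 were called higher at ZT 6 and 2 at ZT 18.

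Promoters of 6 of the 14 called genes of the clock and PAR bZIP lists are shown, chosen because a motif that clock proteins read stands in them. *Tef* also holds an E-box, and the windows of *Clock*, *Npas2*, *Rora*, *Nr1d1*, *Nr1d2*, *Dbp* and *Hlf* hold none of the 3 motifs searched. Windows run from 250 bases before to 50 bases after a transcription start in RefSeq annotation of GRCm38.p6. All are written 5′ to 3′ along the gene, in lower case with the motif in capitals. *Arntl* and *Nfil3*, both high at ZT 22, hold the core of the ROR element, TAGGTCA, which in the *Nfil3* window reads along the other strand.
*Arntl* (chr7:113207261-113207560, plus strand): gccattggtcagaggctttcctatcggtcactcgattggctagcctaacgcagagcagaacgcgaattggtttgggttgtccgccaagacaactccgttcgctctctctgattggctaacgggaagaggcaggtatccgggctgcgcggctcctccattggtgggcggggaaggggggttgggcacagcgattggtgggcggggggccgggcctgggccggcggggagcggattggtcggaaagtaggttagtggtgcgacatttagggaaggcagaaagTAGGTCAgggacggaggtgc
*Nfil3* (chr13:52980990-52981289, minus strand): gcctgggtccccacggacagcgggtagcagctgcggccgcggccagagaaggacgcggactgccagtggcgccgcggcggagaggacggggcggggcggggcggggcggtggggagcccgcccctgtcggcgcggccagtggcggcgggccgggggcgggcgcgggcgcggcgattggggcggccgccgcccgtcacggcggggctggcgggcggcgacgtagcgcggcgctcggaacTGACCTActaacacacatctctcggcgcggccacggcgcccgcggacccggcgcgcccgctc
The E-box CACGTG stands 3 times in *Ciart* and once each in *Per1*, both high at ZT 10, and in *Cry1*, which was high at ZT 22.
*Ciart* (chr3:95882179-95882478, minus strand): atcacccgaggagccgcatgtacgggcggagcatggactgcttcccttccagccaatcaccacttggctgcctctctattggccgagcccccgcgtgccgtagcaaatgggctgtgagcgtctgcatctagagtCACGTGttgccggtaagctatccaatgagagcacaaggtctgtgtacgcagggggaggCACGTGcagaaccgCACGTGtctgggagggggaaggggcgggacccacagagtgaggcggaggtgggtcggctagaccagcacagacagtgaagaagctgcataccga
*Per1* (chr11:69098699-69098998, plus strand): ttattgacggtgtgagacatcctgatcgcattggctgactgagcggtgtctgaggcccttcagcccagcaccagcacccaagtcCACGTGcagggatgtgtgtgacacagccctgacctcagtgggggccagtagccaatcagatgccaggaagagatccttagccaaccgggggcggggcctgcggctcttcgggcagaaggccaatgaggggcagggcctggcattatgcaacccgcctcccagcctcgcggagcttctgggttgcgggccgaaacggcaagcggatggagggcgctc
*Cry1* (chr10:85185005-85185304, minus strand): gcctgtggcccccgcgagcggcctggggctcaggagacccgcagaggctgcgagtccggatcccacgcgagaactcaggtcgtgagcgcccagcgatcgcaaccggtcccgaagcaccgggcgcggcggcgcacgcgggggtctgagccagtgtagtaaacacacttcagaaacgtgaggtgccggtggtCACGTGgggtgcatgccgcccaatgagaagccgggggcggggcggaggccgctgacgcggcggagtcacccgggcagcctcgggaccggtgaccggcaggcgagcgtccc
*Per3* holds 2 copies of the D-box TTATGTAA, a sequence read by DBP, TEF, HLF and NFIL3.
*Per3* (chr4:151044616-151044915, minus strand): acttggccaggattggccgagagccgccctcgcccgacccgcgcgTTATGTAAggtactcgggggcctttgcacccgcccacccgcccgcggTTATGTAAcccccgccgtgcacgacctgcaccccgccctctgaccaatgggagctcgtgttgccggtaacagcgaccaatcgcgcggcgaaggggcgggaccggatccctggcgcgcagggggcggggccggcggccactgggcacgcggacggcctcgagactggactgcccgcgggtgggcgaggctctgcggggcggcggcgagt
Searched on both strands in any listed promoter of a gene, the E-box was present in 11.2% of the 12016 tested genes with a promoter in the table, in 12.9% of 178 genes higher at ZT 22 and in 13.8% of 152 higher at ZT 10. The ROR core was present in 2.31% of all, in 5.62% of those higher at ZT 22 (10 genes) and in 1.97% of those higher at ZT 10 (3 genes). The D-box, searched as TTATGTAA or TTACGTAA, was present in 0.982% of all, in 0 genes higher at ZT 22 and in 2 genes higher at ZT 10. These shares are descriptions of the windows, and the E-box shares lay close to the share among all genes.

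Outside the clock, genes of protein folding were higher at ZT 22. Cytosolic chaperones of the heat shock families hold and refold proteins, and many of them are switched on together by the factor HSF1. The heat shock and folding list, which also includes *Serpinh1* of the endoplasmic reticulum, held 22 tested genes. Of these, 12 were higher at ZT 22 and 0 were higher at ZT 10, against 1.20% of all genes called higher at ZT 22. The median log2 fold change was 0.52, and 21 of 22 fitted differences were above 0. *Hspa8*, which encodes the constitutive HSC70, was at 272, 294, 239 and 240 CPM at ZT 10 and at 1039, 827, 884 and 649 CPM at ZT 22. It differed 3.25-fold (1.70, SE 0.15, adjusted p = 8.5e-06). *Hsph1*, which encodes the nucleotide exchange factor HSP110, was at 17.0, 18.8, 13.3 and 15.8 CPM and at 82.8, 72.8, 66.4 and 48.8 CPM (2.06, SE 0.29, adjusted p = 0.000555). In both genes replicate 4 was the lowest ZT 22 library and still lay above every ZT 10 library. *Serpinh1*, a collagen chaperone of the endoplasmic reticulum, was at 393 to 485 CPM and at 753 to 1173 CPM (1.17, SE 0.25, adjusted p = 0.00976), and was not called under limma-voom, under robust dispersion or without any 1 of the 8 libraries other than ZT 22 replicate 4. Co-chaperones of HSP90 were among the called genes, with log2 fold changes of 0.63 for *Stip1*, 0.72 for *Ahsa1* and 0.58 for *Fkbp4*, beside *Hsp90aa1* at 0.71. The inducible *Hspa1a* and *Hspa1b*, near-identical copies whose reads cannot be told apart with certainty, were not called, at 0.31 and 0.03. Neither was *Hsf1*, at 0.23. The heat shock element was searched on both strands as GAA, TTC and GAA or as TTC, GAA and TTC, each 2 bases apart. The window of *Hsph1* holds this element, in capitals, and also an E-box, CACGTG, left in lower case here.
*Hsph1* (chr5:149636287-149636586, minus strand): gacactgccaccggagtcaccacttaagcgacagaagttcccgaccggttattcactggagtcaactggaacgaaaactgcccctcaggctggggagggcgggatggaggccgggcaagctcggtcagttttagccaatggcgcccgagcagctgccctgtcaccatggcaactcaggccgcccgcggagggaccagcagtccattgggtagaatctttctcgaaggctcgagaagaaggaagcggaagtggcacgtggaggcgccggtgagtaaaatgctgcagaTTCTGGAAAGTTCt
The heat shock element was present in 0.608% of the tested genes with a promoter and in 2 of the 178 genes higher at ZT 22. In the promoter table it was also found for *Chordc1*, which was called (0.78), and for *Hspd1* and *Hspe1*, which were not (0.41 and 0.48).

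Chaperones of the endoplasmic reticulum, where secreted proteins fold, were also higher at ZT 22 for 6 of 21 tested genes. The share over all genes was 1.20%. In this list 0 were higher at ZT 10, and the median was 0.33. *Hspa5*, which encodes the HSP70 of this compartment (BiP), was at 322, 377, 343 and 324 CPM at ZT 10 and at 729.7, 590.4, 695 and 549 CPM at ZT 22 (0.91, SE 0.11, adjusted p = 0.00012). *Sdf2l1*, a partner of BiP, was at 4.82 to 6.94 CPM and at 11.4 to 14.0 CPM (1.08, SE 0.18, adjusted p = 0.00204). The others called were *Hyou1* (0.61), *Manf* (0.60), *Pdia6* (0.53) and *Creld2* (0.63). Under RLE factors and under library size alone, 12 and 10 genes of the heat shock and folding list were called. For the endoplasmic reticulum list these counts were 6 and 5.

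Genes of cholesterol synthesis summed to more at ZT 22 than at ZT 10, by least in replicate 4, and 0 of them passed the test. In the list of cholesterol synthesis and uptake, which the factor SREBP2 controls, 24 of 25 fitted differences were above 0, with a median of 0.81, and 0 passed an FDR of 0.01 while 8 passed 0.05. The 25 genes summed to 1104, 1288, 1443 and 1288 CPM at ZT 10 and to 3056, 2228, 3595 and 1565 CPM at ZT 22. Replicate 4 was the lowest at ZT 22, and ZT 18 replicate 4 stood apart in the same way, at 940.3 CPM beside 2352 to 2945 CPM. *Hmgcs1*, which encodes an early enzyme of the pathway, was at 165 to 198 CPM and at 384, 336, 509.7 and 267 CPM (1.05, SE 0.23, adjusted p = 0.0113). *Hsd17b7* (1.29, adjusted p = 0.0118) and *Srebf2* (0.60, adjusted p = 0.0131), the gene of SREBP2, also lay just outside the threshold. Without ZT 22 replicate 4, 4 genes of the list were called (1.74% of all genes were called higher at ZT 22 in that fit). Without ZT 18 replicate 4 there were 9, in a fit that called 902 genes in either direction. Without ZT 6 replicate 2, ZT 18 replicate 4 and ZT 22 replicate 4 there were 15 of 25. That fit called 1330 genes in either direction. Leaving out libraries that stood apart was chosen after seeing the data, and ZT 18 replicate 4 was low in this same list. These counts are therefore descriptions and no separate support. With the 8 libraries fitted alone, 9 were called, in a fit that called 910 genes in either direction.

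Of 18 genes of fatty acid synthesis, 0 were called, with a median of 0.35. In the fit with 1330 called genes, without ZT 6 replicate 2, ZT 18 replicate 4 and ZT 22 replicate 4, 5 of these 18 were called. Their sums overlapped between the times, at 56720.4 to 77558 CPM at ZT 10 and at 81600.3, 61999, 108517 and 65322 CPM at ZT 22. *Thrsp*, a lipogenic gene of fat and liver, was at 559.9, 557, 838 and 781 CPM at ZT 10 and at 3259, 2413, 3134 and 1329 CPM at ZT 22 (1.89, SE 0.42, adjusted p = 0.0128). *Acly*, which encodes the enzyme that makes cytosolic acetyl-CoA, spread from 684 to 2583 CPM at ZT 10 and from 1630 to 5729 CPM at ZT 22 and overlapped. *Angptl8*, which encodes an insulin-responsive inhibitor of lipoprotein lipase, was called with a large SE. It was at 6.47, 6.26, 11 and 8.05 CPM at ZT 10 and at 147, 126, 93.1 and 12.9 CPM at ZT 22 (3.60, SE 0.75, adjusted p = 0.00877). The last value, in replicate 4, lay just above the ZT 10 range. *Angptl8* was not called under limma-voom, under robust dispersion, with a replicate block or without any 1 of the 8 libraries other than ZT 22 replicate 4.

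**Figure D3:**
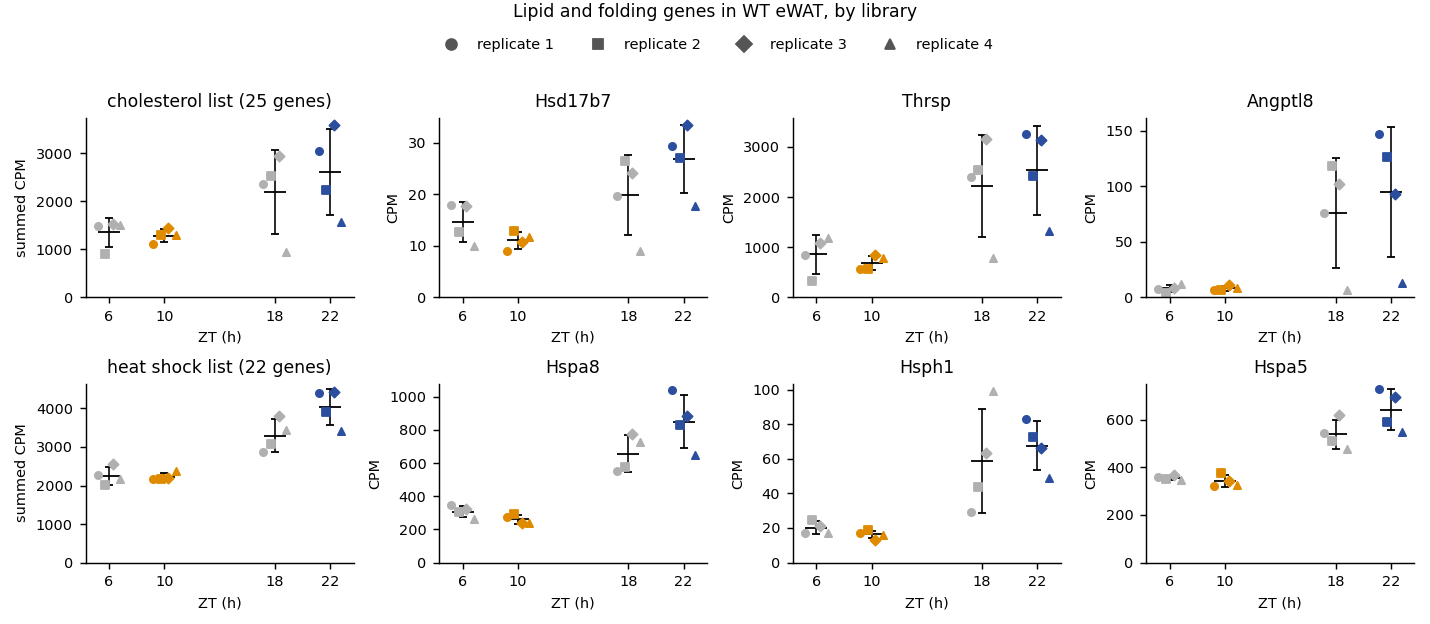
CPM in the 16 WT eWAT libraries by ZT in hours, on linear axes that start at 0, for the summed cholesterol list, 3 lipid genes, the summed heat shock list and 3 chaperone genes. Points are libraries with a symbol for each replicate number (orange ZT 10, blue ZT 22, grey ZT 6 and ZT 18), and bars are the mean and SD of 4. In the upper row the triangles of replicate 4 at ZT 18 and ZT 22 lie below the other 3, and in the lower row the lowest ZT 22 library still lies above all ZT 10 libraries.

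The genes that handle stored and circulating lipid gave few calls. For all genes tested, the shares were 1.20% higher at ZT 22 and 1.16% higher at ZT 10. Of 21 genes of lipolysis and lipid uptake, 2 were higher at ZT 22 and 0 at ZT 10, with a median of -0.10. *Angptl4*, which encodes an inhibitor of lipoprotein lipase linked to fasting, was at 128, 123, 183 and 165 CPM and at 268, 303, 439 and 442 CPM (1.28, SE 0.20, adjusted p = 0.00115). *G0s2*, which encodes an inhibitor of the lipase ATGL, was at 135, 208, 156 and 127 CPM and at 388, 276, 447 and 227 CPM (1.10, SE 0.20, adjusted p = 0.00415). *Lipe*, which encodes hormone-sensitive lipase, was at 1776 to 1854 CPM and at 1129 to 1407 CPM, without overlap, and did not pass (-0.51, SE 0.11, adjusted p = 0.0115). Of 14 genes of triglyceride synthesis, *Gpat4* (-0.49, adjusted p = 0.00249) and *Lpin3* (-0.64, adjusted p = 0.00814) were higher at ZT 10. *Lpin3* was not called under 10 of 22 alternatives, among them no filter, all 64 samples, a replicate block and leaving out any 1 of the 8 libraries other than ZT 22 replicate 3. *Cpt1a*, which encodes the transferase that admits fatty acids to mitochondria, was the 1 called gene among 19 of fatty acid oxidation and was higher at ZT 10 (-0.52, adjusted p = 0.00726). The TCA cycle (18 tested, median 0.09), the mitochondrial genome (8 tested, median -0.05), insulin and glucose uptake (19 tested, median -0.13) and collagens and matrix (24 tested, median 0.17) had 0 calls each. In glycolysis and glycogen, 1 of 25 was called, *Pfkp*, a phosphofructokinase (0.84, adjusted p = 0.00806). Among 18 adipocyte transcription factors, 1 was called, *Nr1h3*, which encodes the oxysterol receptor LXRα (0.56, adjusted p = 0.00628).

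Among 11 adipokine genes tested, 2 were called, both higher at ZT 10, with a median over the list of 0.06. The share of all genes called higher at ZT 10 was 1.16%. *Nrg4*, a secreted ligand of the EGF family, was at 245, 201, 209 and 201 CPM and at 103, 107, 108 and 97.0 CPM (-1.04, SE 0.15, adjusted p = 0.00061). *Lep*, which encodes leptin, was at 926 to 1543 CPM and at 1828 to 2341 CPM, without overlap, and did not pass (0.80, SE 0.35, adjusted p = 0.185). *Cxcl12*, the 1 called gene among 17 chemokines and cytokines, was higher at ZT 10 (-0.54, adjusted p = 0.00145). Of 18 genes that respond to glucocorticoids, 0 were called, with a median of -0.35 and 14 fitted differences below 0. Without ZT 18 replicate 4, left out after seeing the data, 3 of them were called higher at ZT 10. With the 8 libraries fitted alone 4 were. These fits called 902 and 910 genes in either direction, against 435 in the main fit. *Klf9*, the nearest to the threshold, was at 138 to 164 CPM and at 79.1 to 109.9 CPM (-0.70, SE 0.15, adjusted p = 0.0111).

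*Nampt*, the gene floxed in these mice, encodes the rate-limiting enzyme of the NAD salvage pathway. In WT eWAT it overlapped between the times, at 165, 180.2, 197 and 153 CPM at ZT 10 and 195, 167, 242 and 184 CPM at ZT 22 (0.18, SE 0.14, adjusted p = 0.507). It was higher at ZT 18, at 221 to 375 CPM, than at ZT 6, at 135 to 159 CPM (1.06, adjusted p = 0.00144). Of 23 genes of NAD metabolism, *Naprt*, which starts the route from nicotinic acid, was the 1 called between ZT 10 and ZT 22 (-0.55, adjusted p = 0.00526), and it shares exonic bases with *Eef1d* on the same strand.

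The remaining genes named by the size of the increase were *Dtx4*, *Cdkn1a*, *Osgin1*, *Dusp10* and *Alkal2*. *Dtx4*, which encodes a ubiquitin ligase of the Deltex family, was at 17.8, 20.6, 17.7 and 20.7 CPM at ZT 10 and at 131, 132, 157 and 115 CPM at ZT 22 (2.80, SE 0.25, adjusted p = 8.9e-06). *Cdkn1a*, which encodes the cell cycle inhibitor p21, was at 3.00 to 4.63 CPM and at 16.4 to 30.7 CPM (2.67, SE 0.30, adjusted p = 8.9e-05), and it was the 1 called gene among 27 of proliferation. *Osgin1* (2.41), *Dusp10*, a MAP kinase phosphatase (2.34), and *Alkal2*, a ligand of the receptor ALK (2.25), had adjusted p-values of 6.8e-05, 0.00102 and 8.9e-05. Among the smallest p-values at ZT 22 stood *Dapk1*, which encodes the death-associated protein kinase, at 76.6 to 91.9 CPM and at 171 to 203 CPM (1.20, SE 0.10, adjusted p = 6.3e-06). *Smim5* was among the largest decreases, at 10.4 to 12.6 CPM and at 1.36 to 2.99 CPM (-2.44, SE 0.31, adjusted p = 0.000222). *Gm45060*, annotated as an antisense transcript, completed that group (-2.65, SE 0.56, adjusted p = 0.00925).

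Lists for ribosome biogenesis, aminoacyl-tRNA synthetases and the interferon response were written after the called genes had been seen, and their counts are descriptions. For all genes tested, the shares were 1.20% higher at ZT 22 and 1.16% higher at ZT 10. Of 39 genes of ribosome biogenesis, 11 were higher at ZT 22 and 1 was higher at ZT 10, with a median of 0.33 and 33 fitted differences above 0. *Heatr1* (0.66), *Utp20* (0.55) and *Nolc1* (0.59), which act in early processing of ribosomal RNA, were higher at ZT 22, as was *Bysl* (0.77), an assembly factor of the small subunit. The exception was *Rcl1*, at 41.4 to 49.0 CPM at ZT 10 and 22 to 31.1 CPM at ZT 22 (-0.70, adjusted p = 0.00205). Of 20 synthetases, *Iars*, which charges tRNA with isoleucine, was the 1 called (0.59, adjusted p = 0.000418). Of 39 interferon-response genes, 5 were higher at ZT 10 and 0 at ZT 22, with a median of -0.06. These were *Trim14* (-1.21), *Mov10* (-0.86), *Dtx3l* (-0.84), *Parp9* (-0.69) and *Ifih1* (-0.50), and *Dtx3l* and *Parp9* share exonic bases on opposite strands. Over all lists, 63 of the 435 called genes were members of a list and 372 were not.

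Whether the difference between ZT 10 and ZT 22 was the same in the other depot was tested as an interaction in 1 model of all 64 libraries. The difference itself differed between WT eWAT and WT BAT for 552 of 20249 genes (2.73%). Of the 221 genes higher at ZT 22 in eWAT, 41 were among them, 28 with a fitted difference of the other sign in BAT. Of the 214 genes higher at ZT 10, 34 were among them, 27 with the other sign. Both sets were chosen on WT eWAT libraries that also enter the interaction. This choice favours calls, so these counts cannot be set against the 2.73% of all genes. *Nr1d1* was high at ZT 10 in both depots with a smaller difference in BAT, from 34.0 ± 11.3 to 16.5 ± 2.91 CPM (SD, n = 4), and the log2 difference was -4.01 in eWAT and -1.04 in BAT (interaction adjusted p = 3.4e-07). *Dbp* and *Arntl* showed no such call, at -4.52 and -4.48 for *Dbp* and at 4.95 and 4.48 for *Arntl*. *Gpr157*, a G protein-coupled receptor gene, was at -1.24 in eWAT and 0.33 in BAT (adjusted p = 2.6e-07). *Phldb1* (-0.77 and 0.52, adjusted p = 6.4e-07), *Bbx* (-0.37 and 0.36, adjusted p = 8.1e-07) and *Atp6v0a2*, a subunit of the vacuolar proton pump (0.46 and -0.33, adjusted p = 3.4e-07), had opposite signs in the depots. *Hspa5* rose at ZT 22 in eWAT, from 341 ± 25.7 to 641 ± 85.3 CPM (SD, n = 4), beside 411 ± 27.6 and 345 ± 52.6 CPM in BAT (0.92 and -0.25, interaction adjusted p = 0.000137). *Nr1h3* also had opposite signs (0.57 and -0.38, adjusted p = 1.9e-05). *Gpat4* was higher at ZT 10 in both, by more in BAT (-0.48 and -1.78, adjusted p = 0.000277). The cytosolic chaperone *Hspa4l* and the co-chaperone *Stip1* were higher at ZT 22 in both, and again by more in BAT (0.82 and 1.63, adjusted p = 0.00109, and 0.64 and 1.28, adjusted p = 0.00276). The count of 552 ranged from 152 to 505 when 1 replicate number was left out of every group.

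The same test against FANKO eWAT called 64 of 20249 genes (0.316%), of which 17 were higher at ZT 22 in WT eWAT and 8 higher at ZT 10. It uses the same WT eWAT libraries as the test against BAT. The genes higher at ZT 22 or ZT 10 were chosen on these libraries too, so the counts of 17 and 8 carry the same limit. *Cdr2* had the smallest p, at 57.4 ± 4.74 and 140.4 ± 26.7 CPM in WT (SD, n = 4) and 122 ± 16 and 102 ± 7.52 CPM in FANKO (1.30 and -0.26, adjusted p = 7.1e-05). *Angptl4* differed most in direction, since its log2 difference was 1.29 in WT and -1.05 in FANKO, where it was at 224 ± 85.8 CPM at ZT 10 and 108 ± 22.7 CPM at ZT 22 (SD, n = 4, interaction adjusted p = 0.00115). *Eif4a1*, *Fastkd2*, *Efr3a* and *Rbm45* were higher at ZT 22 in WT by 0.61 to 0.83 and lay between -0.23 and 0.08 in FANKO, with adjusted p between 0.00039 and 0.000605. Among clock genes the difference was smaller in FANKO for *Dbp* (-4.52 and -2.71, adjusted p = 0.00157) and *Clock* (1.05 and 0.35, adjusted p = 0.00202). *Arntl* was at 4.95 and 3.76 without a call (adjusted p = 0.15). *Dtx4* kept its direction with a smaller difference (2.81 and 1.21, adjusted p = 0.00202). These calls rest on few libraries. Without replicate 2 of every group 0 genes were called, without replicate 3 there were 6, without replicate 1 there were 21, and without replicate 4 there were 65.

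**Figure D4:**
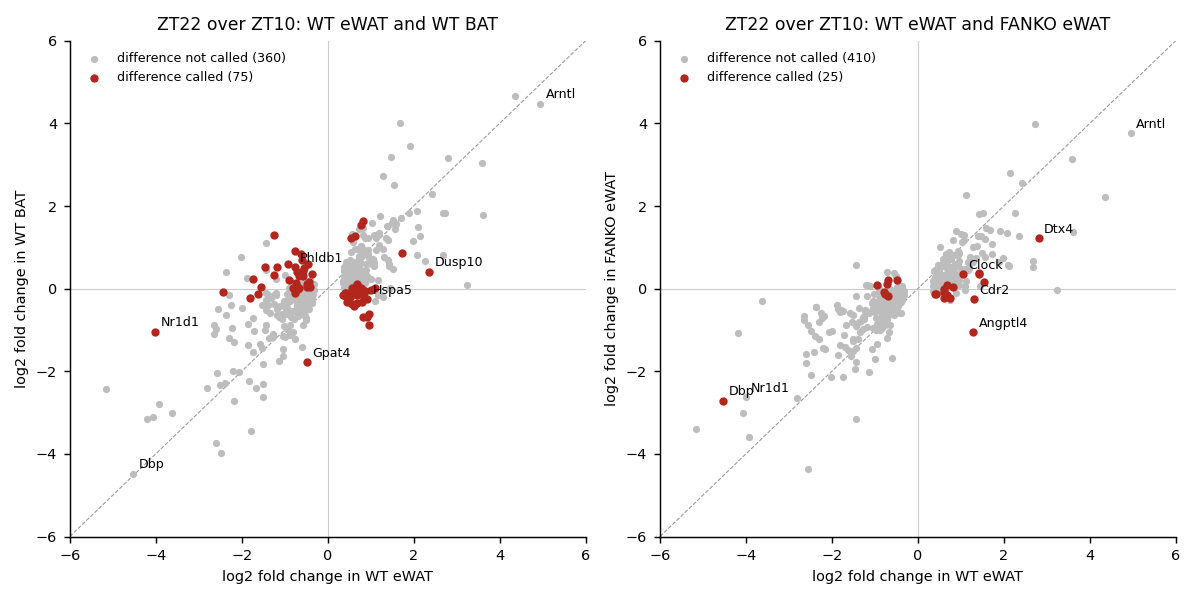
Log2 fold change of ZT 22 over ZT 10 for the 435 genes called in WT eWAT, with WT eWAT on the horizontal axis and WT BAT (left) or FANKO eWAT (right) on the vertical axis, all from the model of 64 libraries. Red points are genes whose difference differed between the 2 groups at an FDR of 0.01 (on the left 41 of the genes higher at ZT 22 and 34 of those higher at ZT 10, on the right 17 and 8), and the dashed line marks equal differences. *Nr1d1* lies above the line on the left, and *Angptl4* lies below 0 on the right.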

How the data were processed

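Total RNA depleted of ribosomal RNA was sequenced by the authors from 64 samples with stranded libraries and 38-bp paired-end reads. Per the labels and the methods of the study, reads were aligned with STAR 2.5.3a to GRCm38.p5 with GENCODE annotation and counted with featureCounts 1.5.3, after FastQC 0.11.5 and MultiQC 1.2. The authors deposited raw counts per gene (52636 genes), 1 column per sample, without normalization, and 0 columns were left unmapped. Strand and multi-mapping options of the counting are not given in the sources used here.

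Genes were kept by filterByExpr (minimum count 10, minimum total 15), scaled by TMM and tested with edgeR 4.0.16 in R 4.3.3 by quasi-likelihood with 1 mean per time point on the 16 WT eWAT samples, at the study's FDR of 0.01. P values were adjusted over all 18393 genes tested. Both interactions came from 1 model of 64 samples and 16 groups. CPM are TMM-scaled, and SE is the log2 fold change divided by the square root of F. Exact permutation tests were two-sided over 4 against 4. The fit was tested on simulated counts with known fold changes. Depth of 10595161 to 21370518 counts limits genes of low CPM most, and counts are relative levels.

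Genes named in the text were members of written lists (clock genes in full, of other lists the called genes first and then the smallest p), the 8 largest increases and 8 largest decreases among called genes whose log2 CPM averaged 1 or more and whose times did not overlap, the 5 smallest p in each direction, the 5 smallest p of each interaction among called genes, and the genes next to the threshold. *Thra*, *Sphk2* and *Eef1d* were named after their overlap was seen, and the other named interaction genes and the uncalled chaperones after their values were seen. The members and lists were chosen with earlier results of these data known, and some genes that the rule would name are not reported here. Symbols and overlaps came from GENCODE M21 on GRCm38 (52489 identifiers matched), and promoters from RefSeq on GRCm38.p6. Alternatives were DESeq2 1.42.0, limma-voom (limma 3.58.1), RLE factors, library size alone, no filter, a stricter filter (CPM of 1 in 4 samples), the 8 samples or all 64, robust dispersion, a replicate block, an FDR of 0.05, a fold above 2 and each sample left out. Leaving out libraries that stood apart was chosen after seeing the data. Python 3.11.15, scipy 1.17.1 and matplotlib 3.10.9 were used for exact tests and figures.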

Additional observations from a re-analysis of the deposited data

Results flagged for a closer look

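In 196 groups of 4 values, 11 had a highest or lowest library separated from the nearest other by more than Dixon's critical share of the range, where chance gives about 1 in 20. The flagged share lies close to that of chance. ZT 22 replicate 4 held 5 of the 11 flags. It had the lowest *Hsp90aa1* (160.1 CPM, next 199.8) and *Elovl3* (1.44 CPM, next 3.30). It also had the highest *Acta1* (99.8 CPM, next 23.8), skeletal muscle marker sum (105 CPM, next 28.3) and T and NK cell marker sum (12.7 CPM, next 5.66). *Acta1* is a member of the muscle sum, so its flag and that of the sum are not separate. The other 6 were spread over libraries. They were *Arntl* in ZT 10 replicate 2 (2.53 CPM), *Nr1d2* in the same library (171 CPM), *Cry1* in ZT 10 replicate 4 (11.1 CPM), *Mov10* in ZT 10 replicate 1 (28.0 CPM), the brown or beige marker sum in ZT 22 replicate 3 (39.8 CPM) and the total count of ZT 10 replicate 3 (10595161).

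The difference between ZT 22 and ZT 10 differed between depots (log2, WT eWAT minus WT BAT, interaction FDR below 0.01) for *Nr1d1* (-2.96), *Gpr157* (-1.57), *Phldb1* (-1.29), *Bbx* (-0.73), *Hspa4l* (-0.81) and *Stip1* (-0.64). It differed in the other direction for *Atp6v0a2* (0.79), *Hspa5* (1.17), *Gpat4* (1.30), *Nr1h3* (0.95), *Dusp10* (1.95), *Hmgcs1* (1.01), *Hsd17b7* (1.23), *Utp20* (0.55) and *Nolc1* (0.67). It also differed for *Eif4a1* (1.02), *Fastkd2* (0.58), *Efr3a* (0.59), *Rbm45* (0.85) and *Smim5* (-2.35).

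Between genotypes (WT eWAT minus FANKO eWAT) the difference differed for *Cdr2* (1.57), *Angptl4* (2.34), *Eif4a1* (0.84), *Fastkd2* (0.83), *Efr3a* (0.61), *Rbm45* (0.79), *Clock* (0.70), *Dbp* (-1.81), *Dtx4* (1.60) and *Hsd17b7* (1.5). With 3 replicates per group, 0 of these 10 kept the call without replicate 2.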

How the results depend on the processing

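The 435 genes became 1014 with DESeq2, 910 with the 8 libraries alone, 941 with all 64, 1313 at an FDR of 0.05 and 141 with a fold above 2. They became 338 with library size alone (307 shared, 70.6%), 372 without a filter (351 shared) and 397 with limma-voom (388 shared), and 451, 466 and 434 with RLE factors, a stricter filter and robust dispersion. Leaving out 1 of the 8 libraries gave 170 to 533, of which the lower value shared 170 genes and the higher 367 with the 435. Leaving out libraries that stood apart, chosen after seeing the data, gave 902 without ZT 18 replicate 4, 1016 without that library and ZT 6 replicate 2, and 1330 without these and ZT 22 replicate 4. The cause was not tested. Interaction with BAT (552 genes) gave 264 with library size alone, 362 with 32 samples, 1233 at an FDR of 0.05 and 152 to 505 without 1 replicate number. Interaction with FANKO (64 genes) gave 13 with library size alone, 186 at an FDR of 0.05 and 0 to 65 without 1 replicate number. ZT 18 minus ZT 6 (142 genes) gave 55 with library size alone, 606 with all 64 samples and 4 to 215 without 1 replicate number. Same-numbered libraries at ZT 10 and ZT 22 correlated at 0.023, 0.175, 0.122 and 0.222 in their deviations, and 3 of 4 correlated best with their own number, a hint of pairing from the data. They were not taken as pairs because 1 of the 4 correlations was below 0.1 and the labels name no shared animal, batch or day. A replicate block gave 616 calls in place of 435 and 302 in place of 142. Of 67 named called genes that were followed, 43 were called under every alternative and 0 changed sign. The called genes *Ahsa1*, *Chordc1*, *Gm45060*, *Tsr1* and *Lrrc56*, also named in the text, were not among these 67. *Cry2*, not called, turned to -0.02 and 0 without ZT 22 replicate 1 and 2 and ranged up to 0.17 without replicate 3, and the endothelium marker sum turned to -9.84 CPM under library size alone.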
